A study of Arabidopsis thaliana with 8 samples.

Results

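The core histone genes of Arabidopsis thaliana were examined for R-loop peaks in seedlings of the ndx1-4 mutant and of Col-0 wild type. A set of 41 genes was taken by locus identifier: the genes of histones H2A, H2B, H4 and H3, where H3 covers H3.1, H3.3 and the centromeric form CENH3. They were 41 of 27444 nuclear protein-coding genes. A gene was counted as having a peak when a peak of the list shared at least 1 base with the gene body or with the 500 bases on each side of it.

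In an R-loop a transcript stays hybridised to its template strand, and the second DNA strand is left single. DRIP-seq recovers them with S9.6, an antibody against DNA:RNA hybrids. The ndx1-4 line carries a mutant allele of NODULIN HOMEOBOX (NDX), and both genotypes were sampled as whole seedlings at 10 days of age, cross-linked with formaldehyde. Each genotype had 1 input library, 2 S9.6 libraries and 1 S9.6 library from RNase H-treated nucleic acid, in which the RNA of hybrids is degraded, 8 libraries in all. The values analysed here were 1 peak list per genotype, so no value below has an error between replicates and no test between genotypes was possible. The lists hold positions and a score, not expression, so the labelled tissue could not be checked against marker genes.

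Histones package DNA: pairs of H2A, H2B, H3 and H4 form the nucleosome core around which DNA is wound. Replicative forms (H3.1, H4, canonical H2A and H2B) are made mostly in S phase, when new DNA has to be packaged, and in plants they come from several scattered genes. Variant forms are placed outside replication or at particular sites: H3.3 at transcribed genes, CENH3 at centromeres, H2A.Z near gene starts, H2A.W in heterochromatin and H2A.X at sites of DNA damage signalling. H2B.S is a variant of dry seeds. In this set 27 genes were replicative and 14 were variant, a division taken from textbook knowledge of the types.

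In H4, H3.1 and H3.3 the genes of a type differ in DNA and share a protein. All 8 H4 genes encode 1 protein of 103 residues from 8 different coding sequences, which were 78.8% to 98.1% identical to each other. The 5 H3.1 genes encode 1 protein of 136 residues and the 3 H3.3 genes another of 136 residues, with coding sequences 80.3% to 89.5% and 78.6% to 88.8% identical. The other types had a distinct protein at each gene. The first 60 coding bases show this for H4, the type in which 1 gene carried a peak over its start in both lists and 7 did not. They come from the RefSeq TAIR10.1 genome, and capitals mark bases that differ from HIS4, the gene with the peak. HIS4 (AT2G28740) lies at chr2:12329895-12329954 on the minus strand, AT1G07660 at chr1:2369212-2369271 on the plus strand, and AT3G46320, AT3G53730 and AT5G59970 at chr3:17020295-17020354, chr3:19912911-19912970 and chr5:24146604-24146663 on the minus strand.
HIS4: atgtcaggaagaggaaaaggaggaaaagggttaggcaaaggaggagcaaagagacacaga
AT1G07660: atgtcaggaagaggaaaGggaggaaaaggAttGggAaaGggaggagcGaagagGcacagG
AT3G46320: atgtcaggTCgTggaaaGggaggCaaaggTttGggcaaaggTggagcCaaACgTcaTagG
AT3G53730: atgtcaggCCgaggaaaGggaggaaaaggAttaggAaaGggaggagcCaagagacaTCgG
AT5G59970: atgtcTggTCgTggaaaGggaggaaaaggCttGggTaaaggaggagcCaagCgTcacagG
Over these 60 bases AT1G07660 differed from HIS4 at 8 positions, AT3G53730 at 10, AT5G59970 at 12 and AT3G46320 at 14. The coding sequences of the other 7 H4 genes were 78.8% to 82.7% identical to that of HIS4 over their whole length of 312 bases.

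Among the 41 core histone genes, 10 had a peak in the ndx1-4 list (24.4%, 95% Wilson interval 13.8 to 39.3) and 10 in the Col-0 list (24.4%, 13.8 to 39.3). Of all protein-coding genes, 36.0% had one in ndx1-4 and 37.6% in Col-0. Intervals here cover counting error only. Core histone genes are short, with a median of 938 bases against 2078 for all protein-coding genes, and a short gene offers less length for a peak. Among the 7096 protein-coding genes of 500 to 1500 bases, 25.4% had a peak in ndx1-4 and 26.8% in Col-0, and of the 35 core histone genes in that length range, 7 had one in ndx1-4 and 7 in Col-0 (20.0%, interval 10.0 to 35.9 in each). These intervals included the share of genes of their own length. The 6 longer members held the other 3 members with a peak in each list.

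**Figure D1:**
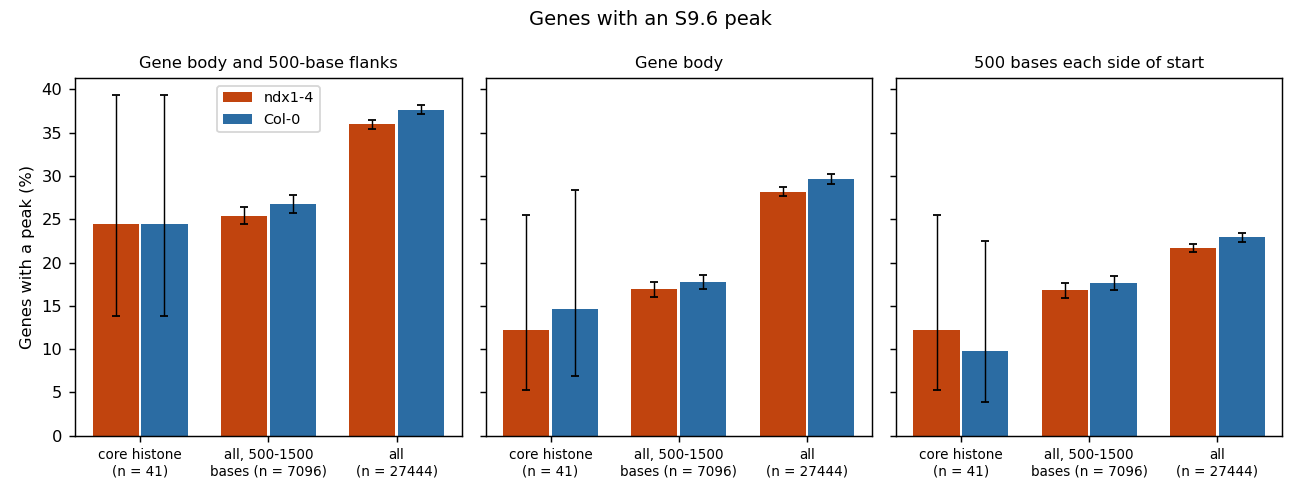
Percent of genes with an S9.6 peak (y axis) for core histone genes, for all protein-coding genes of 500 to 1500 bases and for all protein-coding genes, with ndx1-4 in orange and Col-0 in blue; error bars are 95% Wilson intervals. In the left panel the 41 core histone genes, 6 of which are longer than 1500 bases, stand at 24.4% in both lists, where genes of 500 to 1500 bases stand at 25.4% (ndx1-4) and 26.8% (Col-0) and all genes at 36.0% (ndx1-4) and 37.6% (Col-0).

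Within the gene body alone, 5 core histone genes had a peak in ndx1-4 (12.2%) and 6 in Col-0 (14.6%). The background was 28.2% in ndx1-4 and 29.6% in Col-0 over all protein-coding genes. The intervals of the 41 members, 5.32 to 25.5 in ndx1-4 and 6.88 to 28.4 in Col-0, lay below these shares. Over genes of 500 to 1500 bases the background was 16.9% in ndx1-4 and 17.7% in Col-0. Of the 35 members of that length, 3 had a body peak in ndx1-4 (8.57%, interval 2.96 to 22.4) and 4 in Col-0 (11.4%, 4.54 to 26.0). These 2 intervals included the background of that length. Within 500 bases of the gene start, 5 members had a peak in ndx1-4 (12.2%) and 4 in Col-0 (9.76%), where the background was 21.7% in ndx1-4 and 22.9% in Col-0 over all protein-coding genes, and 16.8% in ndx1-4 and 17.6% in Col-0 over those of 500 to 1500 bases. At the start, the intervals of all 41 members were 5.32 to 25.5 in ndx1-4 and 3.86 to 22.5 in Col-0. They included the share of the shorter genes in each list, while the Col-0 interval lay below the 22.9% of all genes. Of the 35 members of 500 to 1500 bases, 4 had a peak there in ndx1-4 (11.4%, interval 4.54 to 26.0) and 3 in Col-0 (8.57%, 2.96 to 22.4). These intervals included the share of genes of that length. The share of member sequence under a peak, flanks included, was 4.09% in ndx1-4 and 4.60% in Col-0, against 4.66% in ndx1-4 and 5.05% in Col-0 for all protein-coding genes. Over all lengths, the members were thus closer to all genes by covered length than by counts of genes with a peak. The 35 members of 500 to 1500 bases had 3.68% of their sequence under a peak in ndx1-4 and 3.79% in Col-0. All protein-coding genes of that length had 4.63% in ndx1-4 and 4.95% in Col-0.

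Of the 12 members with a peak in either list, 8 had one in both. Over all protein-coding genes these numbers were 10865 and 9331, a larger shared part. No interval was computed for the shared part, and it rests on few members. It changed with the window: in the gene body alone 5 members were in both lists, 0 in ndx1-4 only and 1 in Col-0 only. With a flank of 1000 bases, 14 were in both, 1 in ndx1-4 only and 2 in Col-0 only. A peak was present in both lists at 8 members (19.5%), in ndx1-4 only at 2 (4.88%), in Col-0 only at 2 (4.88%) and in neither list at 29. Over all protein-coding genes 34.0% had a peak in both lists, 1.96% in ndx1-4 only and 3.63% in Col-0 only. All 4 members listed in 1 genotype only are described with their peaks below, and none of the 4 had a peak over its gene start.

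By histone family, 2 of 9 H3 genes had a peak in ndx1-4 and 2 of 9 in Col-0, and 2 of 8 H4 genes had one in ndx1-4 and 3 of 8 in Col-0. Of the H2A genes, 3 of 13 had a peak in ndx1-4 and 3 of 13 in Col-0, and of the H2B genes, 3 of 11 in ndx1-4 and 2 of 11 in Col-0. Every family thus had members with a peak in both lists. Replicative genes had a peak at 6 of 27 in ndx1-4 (22.2%, interval 10.6 to 40.8) and at 5 of 27 in Col-0 (18.5%, 8.18 to 36.7). Variant genes had a peak at 4 of 14 in ndx1-4 (28.6%, 11.7 to 54.6) and at 5 of 14 in Col-0 (35.7%, 16.3 to 61.2). The intervals of the classes overlapped in each list, and the median gene length was 833 bases in the replicative and 1358.5 bases in the variant class. Of the 21 intronless members, 5 had a peak in ndx1-4 (23.8%) and 5 in Col-0 (23.8%), where all intronless protein-coding genes gave 27.0% in ndx1-4 and 28.2% in Col-0. Of the 20 members with introns, 5 had a peak in ndx1-4 (25.0%, interval 11.2 to 46.9) and 5 in Col-0 (25.0%, 11.2 to 46.9), below the 38.2% in ndx1-4 and 40.0% in Col-0 of all genes with introns but with intervals that included them.

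**Figure D2:**
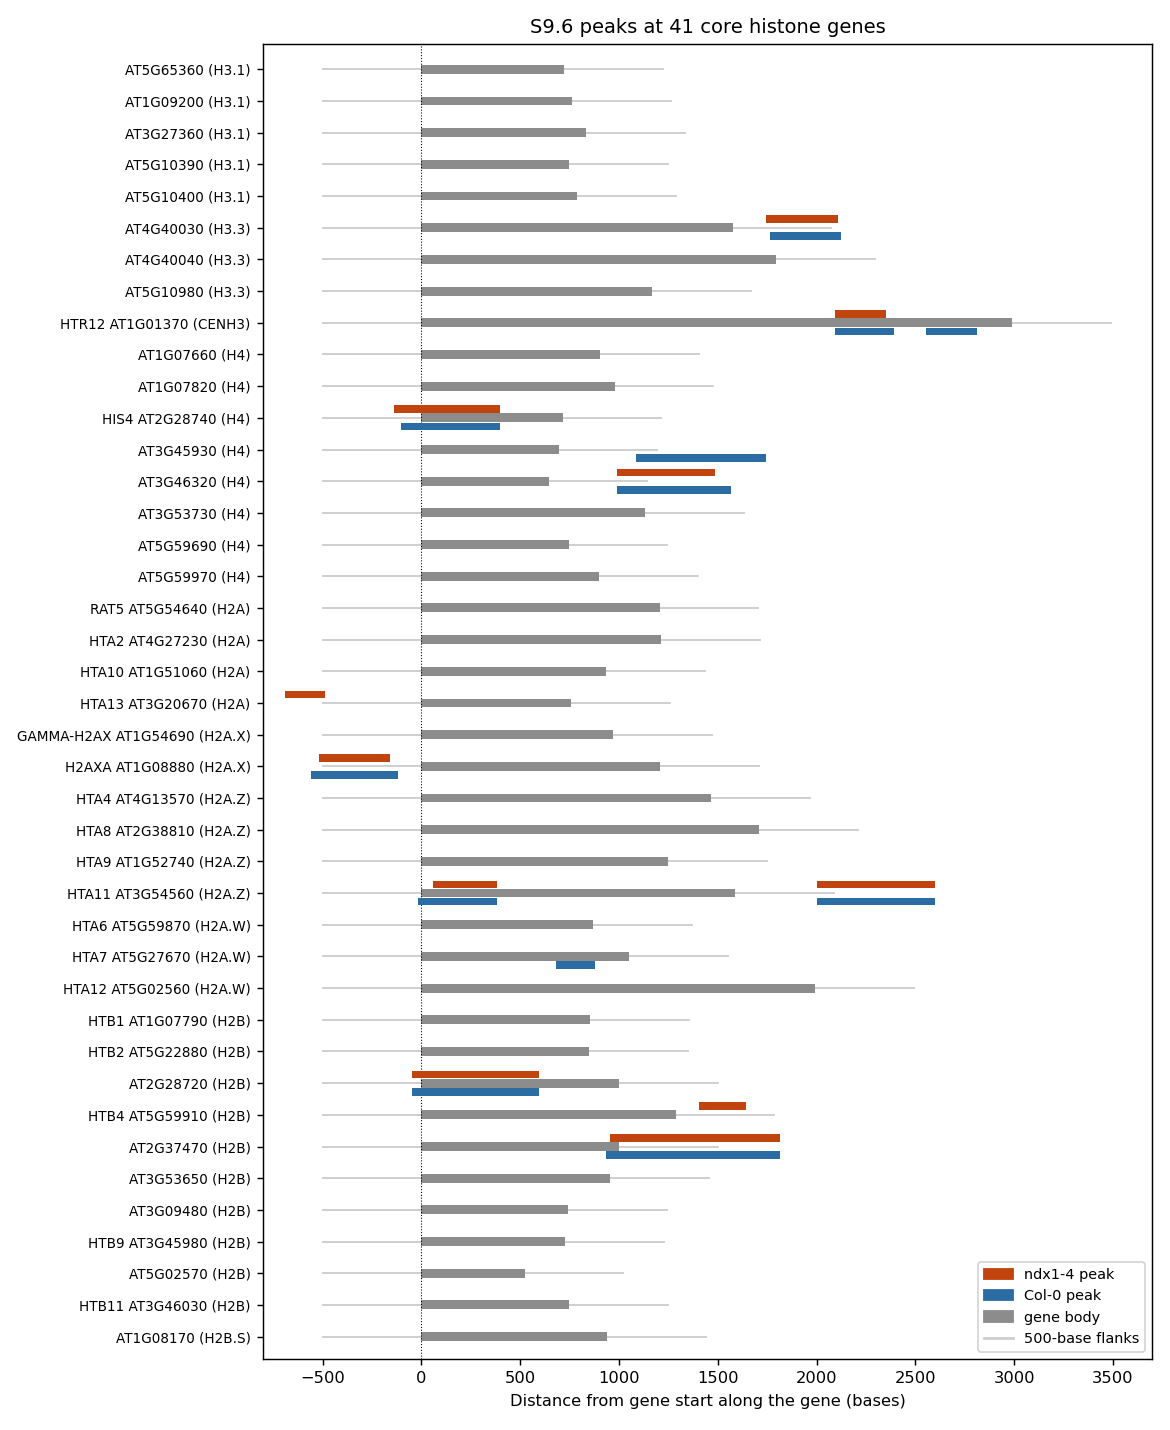
Peaks at each of the 41 core histone genes, drawn by distance in bases from the gene start along the direction of transcription (x axis), with gene bodies in dark grey, 500-base flanks as thin lines, ndx1-4 peaks in orange above and Col-0 peaks in blue below each gene. Peaks over or just after a gene start appear at HIS4, HTA11 and AT2G28720 in both lists, and the row of each of the 5 H3.1 genes holds no peak.

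Peaks over or just after the gene start were found at 3 members, 1 each of H4, H2A.Z and H2B, and in both lists at all 3. At HIS4, an H4 gene at chr2:12329345-12330059 on the minus strand, the ndx1-4 peak was 540 bases long (chr2:12329661-12330200) and the Col-0 peak 500 bases (chr2:12329661-12330160). The peaks began 141 bases before the gene start in ndx1-4 and 101 bases before it in Col-0, and both ran 398 bases into the gene and covered 294 of its 312 coding bases. Their scores stood at the 88.9th percentile of the ndx1-4 list and the 85.1st percentile of the Col-0 list. The score is a whole number the authors deposited with each peak, its unit is not stated, and it is used here only as a rank within its list. HIS4 had the highest-ranked peak among those that touched a member in either list.

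The second start peak lay at the next member along the chromosome, the H2B gene AT2G28720 (chr2:12326808-12327808, plus strand), 1536 bases from HIS4. It had the same edges in both lists, chr2:12326761-12327400, a length of 640 bases, and covered 358 coding bases. Its score was at the 72.4th percentile in ndx1-4 and at the 76.8th percentile in Col-0. Of the 3 start peaks, 2 thus came from 1 stretch of chromosome 2.

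HTA11 (AT3G54560, chr3:20196140-20197726, plus strand), an H2A.Z gene, carried the third. The peak was 320 bases long in ndx1-4 (chr3:20196201-20196520, 56.3rd percentile of the score) and 400 bases in Col-0 (chr3:20196121-20196520, 57.0th percentile). It began 61 bases after the gene start in ndx1-4 and 19 bases before it in Col-0, lay over non-coding bases and held 0 coding bases in either list. HTA11 had another peak past its end, chr3:20198141-20198740, with the same edges in both lists and 600 bases long. That peak lay wholly inside the coding sequence of AT3G54570, which RefSeq describes as a plant calmodulin-binding protein-like protein.

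R-loops are known to form where the displaced strand is rich in purines (A and G), and the coding start of the H2B genes was. Over the first 120 coding bases the purine share had a median of 73.3% in the 11 H2B genes (67.5% to 79.2%), 66.25% in the 8 H4 genes (63.3% to 69.2%), 61.7% in the 9 H3 genes (54.2% to 66.7%) and 56.7% in the 13 H2A genes (49.2% to 65.0%). The families' ranges overlapped, except that no H3 or H2A gene reached the lowest H2B gene. Such starts are shown for AT2G28720, which had the peak, and for HTB1 and HTB2, which had none in their windows. Capitals mark purine runs of at least 10 bases, and the intervals are chr2:12327043-12327162 (plus), chr1:2413049-2413168 (plus) and chr5:7652448-7652567 (minus).
AT2G28720: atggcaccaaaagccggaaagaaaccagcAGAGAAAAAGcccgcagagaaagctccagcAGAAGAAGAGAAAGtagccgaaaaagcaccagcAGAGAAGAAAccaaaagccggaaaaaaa
HTB1: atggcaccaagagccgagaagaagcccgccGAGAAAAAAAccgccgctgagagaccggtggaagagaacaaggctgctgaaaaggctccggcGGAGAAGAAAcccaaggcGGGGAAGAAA
HTB2: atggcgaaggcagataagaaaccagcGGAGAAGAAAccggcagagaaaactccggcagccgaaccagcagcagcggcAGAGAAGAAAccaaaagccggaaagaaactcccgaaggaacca
The purine share of these 120 bases was 75.8% at AT2G28720, 71.7% at HTB1 and 71.7% at HTB2, with 3, 3 and 2 such runs. All 120 bases lay under the peak at AT2G28720 in both lists and 0 lay under a peak at HTB1 and HTB2. HTB1 and HTB2 had the lowest purine share of the 10 canonical H2B genes. The highest, 79.2%, stood at AT3G09480 and AT5G02570, which had no peak in either list. Purine-rich H2B starts were thus found with and without a peak. These shares were not set against that of all protein-coding genes.

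Peaks inside the gene but away from the start were found at 2 members, HTR12 in both lists and HTA7 in Col-0 only, and AT2G37470 was touched at its end in both lists. HTR12 (AT1G01370, chr1:143489-146479, plus strand) encodes CENH3, the H3 form that marks centromeres. It had a peak of 260 bases in ndx1-4 (chr1:145581-145840, 63.7th percentile of the score) and of 300 bases in Col-0 (chr1:145581-145880, 51.6th percentile). Both covered non-coding exon bases in the downstream part of the gene. Col-0 had a further peak of 260 bases at chr1:146041-146300, at the 4.12th percentile of its list, with no ndx1-4 peak over it. HTR12 was the longest member, at 2991 bases.

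HTA7 (AT5G27670, chr5:9792509-9793560, minus strand) encodes an H2A.W, the H2A form of heterochromatin. It had a Col-0 peak of 200 bases, the shortest length in either list, at chr5:9792681-9792880 and the 36.9th percentile of the score. The peak began 680 bases from the gene start, and the nearest ndx1-4 peak lay 6548 bases away. The H2B gene AT2G37470 (chr2:15736727-15737728, plus strand) was touched at its end by a peak of 860 bases in ndx1-4 (chr2:15737681-15738540) and of 880 bases in Col-0 (chr2:15737661-15738540). Of these, 48 bases in ndx1-4 and 68 bases in Col-0 lay in AT2G37470, and 699 bases in each list lay in AT2G37480, the next gene. These were the longest peaks in the member windows.

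The other 6 members with a peak had it in a flank, apart from the gene body. AT3G46320, an H4 gene at chr3:17019785-17020428 on the minus strand, had a peak of 500 bases in ndx1-4 (chr3:17018941-17019440, 92.8th percentile) and of 580 bases in Col-0 (chr3:17018861-17019440, 89.8th percentile). The peak lay 344 bases beyond the gene end in both lists, outside any protein-coding gene, where RefSeq annotates the long non-coding RNA AT3G07395. AT3G45930, another H4 gene (chr3:16883316-16884009, plus strand), had a Col-0 peak of 660 bases at chr3:16884401-16885060. At the 95.4th percentile of its list it was the highest-ranked peak at any member, and it lay 391 bases past the gene end, outside annotated genes. The nearest ndx1-4 peak to AT3G45930 was 5871 bases away.

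At AT4G40030, an H3.3 gene (chr4:18555532-18557106, minus strand), the peak was 360 bases long in ndx1-4 (chr4:18555001-18555360, 19.0th percentile) and 360 bases in Col-0 (chr4:18554981-18555340, 5.11th percentile). It lay past the gene end in AT4G40020, described as a myosin heavy chain-related gene, with 355 of its bases there in ndx1-4 and 360 in Col-0. H2AXA (AT1G08880, chr1:2846894-2848100, minus strand), an H2A.X gene, had an upstream peak of 360 bases in ndx1-4 (chr1:2848261-2848620, 7.16th percentile) and of 440 bases in Col-0 (chr1:2848221-2848660, 16.9th percentile). All of it lay in AT1G08890, a major facilitator superfamily gene. Neither peak shared a base with the histone gene itself.

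The members with a peak in ndx1-4 only were HTA13 and HTB4, and both peaks ranked near the bottom of the list. HTA13 (AT3G20670, chr3:7229390-7230146, plus strand), a canonical H2A gene, had an ndx1-4 peak of 200 bases at chr3:7228701-7228900, 489 bases upstream and at the 1.69th percentile of the score, with 97 of its bases in OCT4, a transporter gene. The nearest Col-0 peak lay 714 bases from HTA13, outside the flank. HTB4 (AT5G59910, chr5:24126877-24128162, plus strand), an H2B gene, had an ndx1-4 peak of 240 bases at chr5:24128281-24128520, 118 bases past its end and at the 2.28th percentile, with 30 of its bases in ULI3. The nearest Col-0 peak was 876 bases from HTB4.

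The flank of 500 bases decided some of these calls. Just outside it lay HTA10, a canonical H2A gene whose nearest peak was 970 bases away in ndx1-4 and 514 bases away in Col-0, and the H2B gene AT3G53650, at 556 bases in ndx1-4 and 2209 bases in Col-0. Just inside it lay HTA13, at 489 bases in ndx1-4 against 714 bases in Col-0.

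The lists shared a peak at the members in 9 pairs, with 1 longer in ndx1-4, 5 longer in Col-0 and 3 of equal length. The difference, ndx1-4 minus Col-0, ranged from -80 to 40 bases with a median of -20 bases, and peak edges lay on a grid of 20 bases. The median was -80 bases after peaks within 200 bases of each other were merged, and 0 bases over peaks of at least 500 bases. Over the 12306 pairs of the whole lists in which 1 peak met 1 peak, 28.6% were longer in ndx1-4, 42.4% longer in Col-0 and 29.0% equal, with a median difference of 0 bases.

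**Figure D3:**
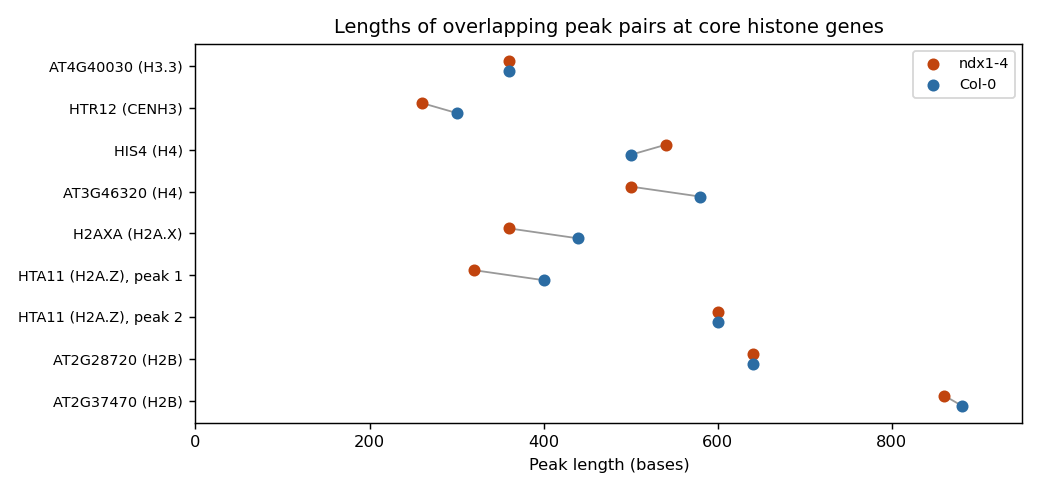
Length in bases (x axis) of the ndx1-4 peak (orange) and the overlapping Col-0 peak (blue) for the 9 peak pairs in the windows of core histone genes, 1 row per pair. HIS4 is the row with the longer ndx1-4 peak, 540 against 500 bases, and no pair differs by more than 80 bases.

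The 29 members without a peak in either list included all 5 H3.1 genes: AT5G65360, AT1G09200, AT3G27360, AT5G10390 and AT5G10400. A count of 0 of 5 allows a share of up to 43.4% by the Wilson interval, which includes the 25.4% (ndx1-4) and 26.8% (Col-0) of genes of 500 to 1500 bases. The nearest peak was 904 to 7026 bases away from them in ndx1-4 and 884 to 6886 bases away in Col-0. AT5G10390 and AT5G10400 lie side by side. The H3.3 genes AT4G40040 and AT5G10980 had none either, with the nearest peak 1788 and 1804 bases away in ndx1-4 and 1808 and 1824 bases away in Col-0.

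Of the H4 genes, AT1G07660, AT1G07820, AT3G53730, AT5G59690 and AT5G59970 were without a peak. The nearest one was 2352 to 9774 bases away in ndx1-4 and 2352 to 11171 bases away in Col-0. At AT5G59970 the distance was 5551 bases in ndx1-4 and 11171 bases in Col-0, the widest gap between the lists in this group of 5. The H2A genes without a peak were RAT5, HTA2 and HTA10 among the canonical genes, GAMMA-H2AX of the H2A.X genes, HTA4, HTA8 and HTA9 of the H2A.Z genes, and HTA6 and HTA12 of the H2A.W genes. RAT5 (AT5G54640), a gene known from work on T-DNA integration, was the farthest of all members from a peak, at 12028 bases in ndx1-4 and 11406 bases in Col-0.

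Of the H2B genes, HTB1, HTB2, AT3G53650, AT3G09480, HTB9, AT5G02570 and HTB11 had no peak, and neither did AT1G08170, the H2B.S gene. At HTB11 the nearest peak was 5789 bases away in ndx1-4 and 2443 bases away in Col-0. AT5G02570 lies wholly inside HTA12, so these 2 genes share their bases. Over all 41 members the median distance from the gene body to the nearest peak was 2352 bases in ndx1-4 and 1824 bases in Col-0, against 1659.5 bases in ndx1-4 and 1478 bases in Col-0 for all protein-coding genes. Among genes of 500 to 1500 bases, it was 3613 bases in ndx1-4 and 2443 bases in Col-0 for the 35 members of that length, against 2399.5 bases in ndx1-4 and 2258.5 bases in Col-0 for all protein-coding genes of that length. The medians of all 41 members lay above those of all genes and below those of the shorter genes in both lists, while the 35 members of that length lay above the shorter genes in both. More than 2000 bases separated 21 of 41 members from a peak in ndx1-4 and 20 in Col-0. Over all protein-coding genes this held for 12785 of 27444 in ndx1-4 and 12243 in Col-0. Among those of 500 to 1500 bases it held for 3888 of 7096 in ndx1-4 and 3763 in Col-0.

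**Figure D4:**
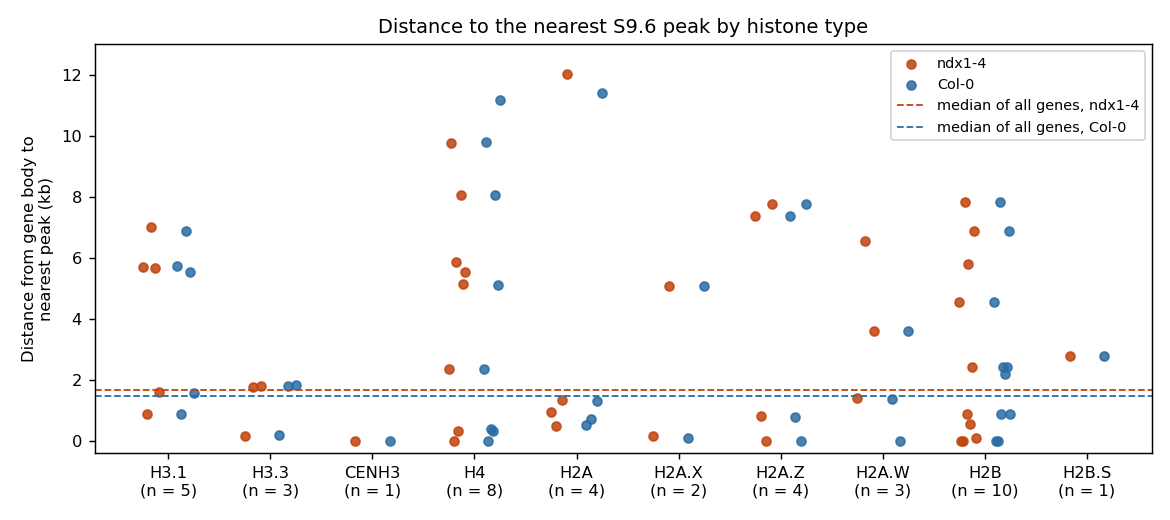
Distance in kb from each gene body to the nearest S9.6 peak (y axis), 1 point per gene and list, by histone type (x axis), with ndx1-4 in orange left of Col-0 in blue; dashed lines are the medians over all protein-coding genes. RAT5, among the H2A genes, is the highest point in each list, and distances in the 2 lists mostly match gene by gene.

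Peak coverage near the start of the core histone genes was lower than over all genes. In the 100-base bins from 100 to 299 bases after the start, 7.317% of member positions were under a peak in ndx1-4 and 7.317% in Col-0, which are the 3 members with a start peak. Over all protein-coding genes the highest bin, 100 to 199 bases, had 11.33% in ndx1-4 and 11.92% in Col-0. From 600 to 899 bases, coverage of the members was 0% in ndx1-4 and at most 2.439% in Col-0, all of it the HTA7 peak. From 1000 to 1999 bases, past the end of many members, their coverage lay above that of all genes in each bin and list. The highest member bins were there, 10.17% in ndx1-4 (1700 to 1799 bases) and 11.41% in Col-0 (1500 to 1599 bases). All genes had 3.314% and 3.597% in these bins.

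**Figure D5:**
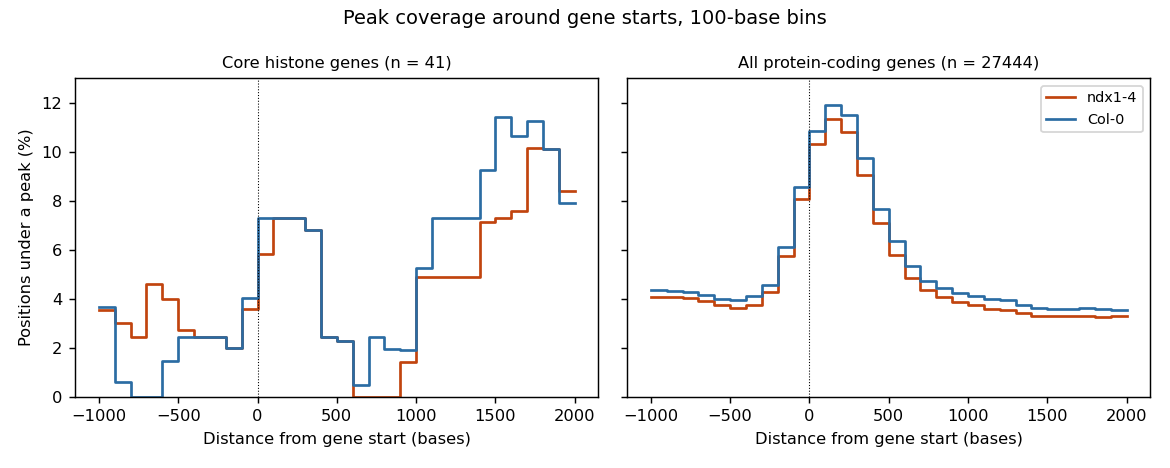
Percent of positions under a peak (y axis) in 100-base bins by distance from the gene start (x axis, bases), for core histone genes (left) and all protein-coding genes (right), with ndx1-4 in orange and Col-0 in blue. Members reach 7.317% near the start in both lists, where all genes reach 11.33% (ndx1-4) and 11.92% (Col-0); beyond 1500 bases most members have ended and the curve shows flanks and neighbours.

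Histone promoters are known to hold short elements that act in S phase, of which the octamer CGCGGATC and the hexamer ACGTCA were searched on both strands of the 250 bases before each gene start. The octamer was found at 9 of 41 members (22.0%) and at 37 of 27444 protein-coding genes (0.135%). The members with it were the H3.1 genes AT5G65360, AT1G09200 and AT5G10400, the H3.3 gene AT4G40040, the H4 genes AT1G07660 and AT5G59690, the H2A genes HTA10 and HTA13, and HTA6 of the H2A.W genes. The hexamer was found at 11 of 41 members (26.8%) and at 2110 of all genes (7.69%), and 8 of the 10 canonical H2B genes held it. No octamer overlapped a hexamer among the 11 octamer and 12 hexamer sites of the members.

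These windows are shown for members on both sides of the peak call, with 16 bases on each side of the element where the window reaches that far and the element in capitals. Positions are chr1:2972401-2972440 (minus) for AT1G09200, chr1:2368691-2368730 (plus) for AT1G07660, chr3:7229306-7229345 (plus) for HTA13, chr2:12326742-12326779 (plus) for AT2G28720, chr2:15736663-15736700 (plus) for AT2G37470, chr3:19889185-19889222 (plus) for AT3G53650 and chr5:3473610-3473647 (minus) for AT5G10980. HTA13 holds the octamer on the other strand.
AT1G09200: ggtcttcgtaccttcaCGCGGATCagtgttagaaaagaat
AT1G07660: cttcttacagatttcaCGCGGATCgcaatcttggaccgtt
HTA13: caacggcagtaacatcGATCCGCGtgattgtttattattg
AT2G28720: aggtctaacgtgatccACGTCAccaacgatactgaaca
AT2G37470: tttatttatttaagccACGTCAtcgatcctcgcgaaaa
AT3G53650: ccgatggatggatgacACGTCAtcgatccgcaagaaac
AT5G10980: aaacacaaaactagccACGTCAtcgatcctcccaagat
Of the 12 members with a peak in either list, 1 held the octamer (HTA13), and of the 29 without a peak, 8 did. The hexamer was in 2 of the 12 and in 9 of the 29. Of all element windows of the members, the window of AT2G28720 was the one that reached under a peak, in both lists. A match says that the letters are present and does not show that a factor binds there.

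Near-identical copies can lower the number of reads that map to 1 place. The share of 31-base words that also occur elsewhere in the genome had a median of 1.50% over the members and 0% over all protein-coding genes. It was highest in the H4 genes, with a median of 20.2% and up to 35.3% at AT3G46320, while HIS4, the H4 gene with a start peak, had 1.02%. AT3G53730 had 0.182% and no peak. The Col-0 peak near AT3G45930 had 18.9% such words. How reads with several matches were counted is not given in the sources used here, and the part of this in the calls was not tested.

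Genes that work with core histones were counted the same way for comparison. Over all protein-coding genes, with a median length of 2078 bases, 36.0% had a peak in ndx1-4 and 37.6% in Col-0. No share was computed over genes as long as those of the chaperone list. Of 13 histone chaperone genes, with a median length of 3236 bases, 9 had a peak in ndx1-4 and 9 in Col-0, the same 9 genes. FAS1, the large subunit of the CAF-1 complex that deposits H3.1 and H4 at replicated DNA, had 4 peaks in each list. NAP1;2, a chaperone of H2A and H2B, had a peak of 820 bases in ndx1-4 and of 540 bases in Col-0. Of 6 genes for exchange and remodelling of histones, with a median length of 3629.5 bases, 3 had a peak in ndx1-4 and the same 3 in Col-0. The longest belonged to AT5G02520, the KNL2 gene, known for CENH3 loading, with 680 bases in ndx1-4 and 700 bases in Col-0. In the same list ATRX, which acts in H3.3 deposition, had a peak of 600 bases at the 99.2nd percentile in ndx1-4 and of 620 bases at the 98.7th percentile in Col-0.

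Of 3 linker histone H1 genes, 2 had a peak in ndx1-4 and 3 in Col-0. The gene with a peak in Col-0 only was HIS1-3, a drought-induced H1, with a peak of 600 bases at the 93.6th percentile inside the gene. The nearest ndx1-4 peak to HIS1-3 was 1569 bases away. Within the gene body alone, 0 H1 genes had a peak in ndx1-4 and 2 in Col-0. The peak counted for AT1G06760 lay wholly in another gene, AT1G06750, in both lists. None of 5 other H3 genes, which include MGH3 of the male gametophyte and HTR11, had a peak in either list. Median lengths were 1264 bases for the H1 genes and 882 bases for these H3 genes. Of all genes of 500 to 1500 bases, 25.4% had a peak in ndx1-4 and 26.8% in Col-0. The H1 gene AT2G30620 (1752 bases) and the H3 gene AT5G12910 (396 bases) lay outside that length range.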

How the data were processed

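The authors deposited a list of peaks for each genotype, with positions on TAIR10 and a whole-number score, from 8 DRIP-seq libraries. The submitters' processing notes name Bowtie2, SAMtools, Picard, deepTools and MACS2. Their roles, the threshold, the control library, any pooling and read depths are not given in the sources used here. A deeper library usually gives more peaks, which cannot be told apart from genotype. The lists held 13549 nuclear peaks in ndx1-4 and 14180 in Col-0, with a median length of 340 bases in each. In each list 2 peaks ended exactly at a chromosome end, which checked the build.

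Gene models, names and sequences came from RefSeq TAIR10.1, in which 41 of 41 loci were found and 20 had a symbol. Overlap (at least 1 base), distance, coverage and composition were computed with Python 3.11.15, numpy 2.4.6 and pandas 2.3.3, after a check on simulated peaks. Shares carry 95% Wilson intervals, and no test was made, since peaks are not replicates. All members were named, and related genes where they had a peak in 1 list only or the longest peak of their list. FAS1, ATRX, MGH3 and HTR11 were named after their values were seen. The members and lists were chosen with earlier results of these data known.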

Additional observations from a re-analysis of the deposited data

How the results depend on the processing

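No paired analysis was possible because the data are 1 peak list per genotype, which also leaves no replicate to omit. Of 101 alternatives over 14 results, 33 stayed close to the value reported, 68 moved and 0 reversed. Counts and shares have no sign to reverse, so a reversal was possible in the length difference only. A count within a factor of 1.5 was called close, so 10 members that became 15 stayed close. A coverage of 4.60% that became 4.79% was called moved. Most of these count few genes, so 1 gene can move them.

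With the gene body only, 5 members had a peak in ndx1-4 (3 replicative, 2 variant) and 6 in Col-0 (3 replicative, 3 variant), with 5 in both lists, 0 in ndx1-4 only and 1 in Col-0 only. Coverage was 3.69% in ndx1-4 and 5.01% in Col-0, and 28.2% of all genes in ndx1-4 and 29.6% in Col-0 had a peak. Within 500 bases of the start, 5 members had one in ndx1-4 (3 replicative, 2 variant) and 4 in Col-0 (2 replicative, 2 variant), with 4 in both lists, 1 in ndx1-4 only and 0 in Col-0 only. Coverage was 4.29% in ndx1-4 and 4.45% in Col-0, and 21.7% of all genes in ndx1-4 and 22.9% in Col-0 had a peak. With a flank of 1000 bases, 15 members had one in ndx1-4 (10 replicative) and 16 in Col-0 (10 replicative), with 14 in both lists and 1 in ndx1-4 only. Coverage was 5.13% in ndx1-4 and 6.03% in Col-0, and 42.6% of all genes in ndx1-4 and 44.4% in Col-0 had a peak.

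With peaks of at least 500 bases, 5 members had one in ndx1-4 (1 variant) and 6 in Col-0 (1 variant), with 5 in both lists, 0 in ndx1-4 only and 1 in Col-0 only. Coverage was 2.32% in ndx1-4 and 2.42% in Col-0, 10.0% of all genes in ndx1-4 and 11.4% in Col-0 had a peak, and the median length difference was 0 bases. Keeping the better-scoring 50% of each list, 6 members had one in ndx1-4 (2 variant) and 7 in Col-0 (2 variant), with 0 in ndx1-4 only and 1 in Col-0 only. Coverage was 3.00% in ndx1-4 and 3.25% in Col-0, and 20.1% of all genes in ndx1-4 and 20.9% in Col-0 had a peak. With at least 50% of the peak inside the window, 1 member was in ndx1-4 only and 1 in Col-0 only, 3 replicative members had a Col-0 peak, and 33.2% of all genes in ndx1-4 and 34.8% in Col-0 had one. Merging peaks within 200 bases gave 4.79% coverage in Col-0 and a median length difference of -80 bases. Genes of 500 to 1500 bases, chosen after seeing the data, gave 5 members in both lists. Coverage of these members was 3.68% in ndx1-4 and 3.79% in Col-0, against 4.63% and 4.95% for all such genes. A peak was at 25.4% of all such genes in ndx1-4 and at 26.8% in Col-0. The cause was not tested. Without read counts, a member without a peak may hold hybrids below the threshold of the list.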

Other observations

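In 5 of the 41 core histone genes the hexamer stood inside a longer shared run, ACGTCATCGATC, which was noticed in the windows and then searched on both strands of the 250 bases before each gene start. These were the H2B genes AT2G37470, AT3G53650, HTB9 (AT3G45980) and AT5G02570 and the H3.3 gene AT5G10980. Over all 27444 protein-coding genes the run was found at 7 (0.0255%), so 5 of the 7 were core histone genes. The run was picked from windows of these same members, so this count cannot show enrichment. The 4 H2B genes were 40.0% of the 10 canonical ones. Of the 5 genes, AT2G37470 had a peak in its window, at the end away from the run, and the other 4 had none in either list.

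The linker histone H1 gene AT2G30620 had a Col-0 peak of 200 bases inside the gene at chr2:13046381-13046580, at the 2.50th percentile of the score, with no ndx1-4 peak over it. Another peak of 300 bases in its flank had the same edges in both lists and lay in the next gene, AT2G30630.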
